A study of Homo sapiens with 12 samples.

Results

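Homologous recombination and Fanconi genes were followed here as a set of 40 named genes in RNA sequencing of 3 human lymphoma cell lines. The members were matched to the table by gene symbol. Each symbol had 1 entry in the deposited table of 63052 genes without missing values, and all 40 were among the 18731 genes that reached 1 FPKM (fragments scaled by transcript length and by the number of mapped fragments) in at least 2 of the 12 libraries.

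The lines KARPAS-422, Pfeiffer and RL come from diffuse large B cell lymphoma of the germinal centre type, and all carry an activating change in the SET domain of EZH2, the enzyme of the PRC2 complex that methylates histone H3. The KARPAS-422 libraries comprise 3 from cultures with 1.5 µM CPI-169 and 3 from cultures with the solvent DMSO at 0.1%. Those of Pfeiffer comprise 2 with 1.5 µM GSK343 and 2 with 0.1% DMSO, and both RL libraries (n = 2) had 0.1% DMSO without an inhibitor. CPI-169 and GSK343 are inhibitors of the EZH2 enzyme, and every culture was harvested after 4 days, with the compound present from seeding. The labels call KARPAS-422 and Pfeiffer responsive in phenotype and RL non-responsive, and the comparisons ask which transcripts change with inhibition and how RL differs at baseline. Each line is a single cell line with its own compound, so that line and compound cannot be told apart in any comparison of the treatment responses. RL was seeded at a lower density than the other lines. The labels do not say whether replicates were separate cultures, and the p-values therefore measure the spread between libraries, which may be technical.

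Homologous recombination repairs a broken chromosome by copying the intact sister chromatid. The MRE11 complex and its partners cut back the broken ends, BRCA1, PALB2 and BRCA2 prepare the single strand for exchange, and strand exchange proteins, the RAD54 proteins among them, let it invade the sister. The Fanconi pathway handles crosslinks between DNA strands: a core complex with the enzyme UBE2T attaches ubiquitin to FANCD2 and FANCI, and recombination finishes the repair. These processes work mainly in S and G2 phase, under the kinases ATM, ATR, CHEK1 and CHEK2, and germinal centre B cells divide rapidly while they break and mutate their own antibody genes.

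The libraries differed in ways that touch these genes. The 2 GSK343 libraries stood apart from each other, with a root mean square difference of 0.497 log2 units across tested genes, against 0.164 to 0.245 within every other pair of replicates. The 22 markers of S phase and mitosis summed to 694 to 721 FPKM with CPI-169 against 724.5 to 806 FPKM with DMSO in KARPAS-422, and to 445 to 629 FPKM with GSK343 against 1838 to 1868 FPKM with DMSO in Pfeiffer. In RL they summed to 2215 to 2249 FPKM. None of the 8 B cell markers was at 0 in any group; they summed to 1751 to 1871 FPKM with CPI-169 against 2083 to 2276 FPKM with DMSO in KARPAS-422, and to 2340 to 2607 FPKM with GSK343 against 2717 to 2773 FPKM with DMSO in Pfeiffer. The 9 T and NK cell markers summed to 54.0 to 60.6 FPKM with CPI-169 against 35.6 to 37.3 FPKM with DMSO in KARPAS-422. There 4 of 5 tested markers were called higher, as were 26.9% of all tested genes, and CD2 and KLRD1 were at 0 in all libraries. In Pfeiffer the T and NK cell markers summed to 298 to 397 FPKM with GSK343 against 411.5 to 413 FPKM with DMSO. Of the 5 tested markers 0 were called there, against 29.5% of all tested genes, and KLRD1 was at 0. Single genes made up most of these sums. CD3G averaged 51.6 FPKM with CPI-169 and 34.7 FPKM with DMSO in KARPAS-422. The other markers called there, CD3D, CD3E and NKG7, were low, with averages of 1.87, 0.69 and 1.85 FPKM with CPI-169. CD8A averaged 346 FPKM with GSK343 and 411 FPKM with DMSO in Pfeiffer. The 8 measured epithelial and stromal markers summed to 58.2 to 80.9 FPKM with GSK343 against 141 to 142 FPKM with DMSO in Pfeiffer. Most of that was EPCAM, which averaged 58.2 FPKM with GSK343 and 135 FPKM with DMSO. The 7 myeloid markers summed to at most 4.41 FPKM in any library. The part of these markers in the results below was not tested. EZH2 itself averaged 41.0 ± 0.54 FPKM with CPI-169 and 47.4 ± 2.61 FPKM with DMSO in KARPAS-422 (SD, n = 3 each), and 17.3 ± 4.99 FPKM with GSK343 and 31.2 ± 0.55 FPKM with DMSO in Pfeiffer (SD, n = 2 each).

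In Pfeiffer nearly the whole set was lower with GSK343. Of the 40 genes, 32 were lower, 1 was higher (the kinase gene ATM) and 7 did not pass (FANCC, PALB2, FANCF, RAD50, ATR, NBN and ATRIP), where a call is an adjusted p under 0.05 by limma with Benjamini-Hochberg adjustment over all tested genes. Across all tested genes 17.5% were called lower, 12% were called higher and 29.5% were called in either direction. The median log2 fold change of the 40 genes was -1.07, against -0.033 for all tested genes. Fold changes throughout are differences in log2(FPKM + 1), which understates the change of genes with low values. The S phase and mitosis markers were lower in 22 of 22 cases in the same comparison, with a median log2 fold change of -1.87. In bulk RNA, fewer cells that express a gene and less of its RNA per cell cannot be told apart. The values of all GSK343 libraries lay below all DMSO libraries for 34 members and above them for 1, as they did for 34% and 23.9% of all tested genes. The spread of each gene was estimated once over all groups, so the closer replicates of the other groups also enter the GSK343 test. Standard errors and p-values given for Pfeiffer therefore do not measure its own spread alone. They can be too small where the GSK343 libraries differ from each other. With Pfeiffer fitted without the other lines, limma called 0 of the 18731 genes (lowest adjusted p 0.0516), and at an unadjusted p under 0.05 it then gave 30 members lower and 1 higher, and 2883 lower and 1751 higher over all tested genes. Among all calls in Pfeiffer 40.7% were higher, and 51% after quantile normalization, which left 29 members lower and 1 higher.

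In KARPAS-422 the set split. With CPI-169, 7 of the 40 genes were higher, 13 were lower and 20 did not pass. The background was high in this comparison: 54.2% of all tested genes were called, 26.9% higher and 27.3% lower, against 20 of the 40 members. All CPI-169 libraries lay above all DMSO libraries for 12 members and below them for 19, as they did for 33.2% and 31.8% of all tested genes. The median log2 fold change of the 40 genes was -0.10, against 0.0078 for all tested genes. The higher genes were FANCF, FANCA, RAD54L, NBN, FANCC, FANCL and XRCC3, and the lowest were ESCO2, RAD54B, POLQ, BARD1 and FANCM. The balance of directions among the members moved with the scaling. After quantile normalization 10 members were higher and 12 lower, and after median scaling 5 were higher and 16 lower. The whole table moved too: among all calls in KARPAS-422 49.7% were higher without such scaling. That share was 45.8% after quantile normalization, where more members were higher, and 44% after median scaling, where fewer were. Of the 22 S phase and mitosis markers, 7 were higher and 11 lower in the same comparison.

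**Figure D1:**
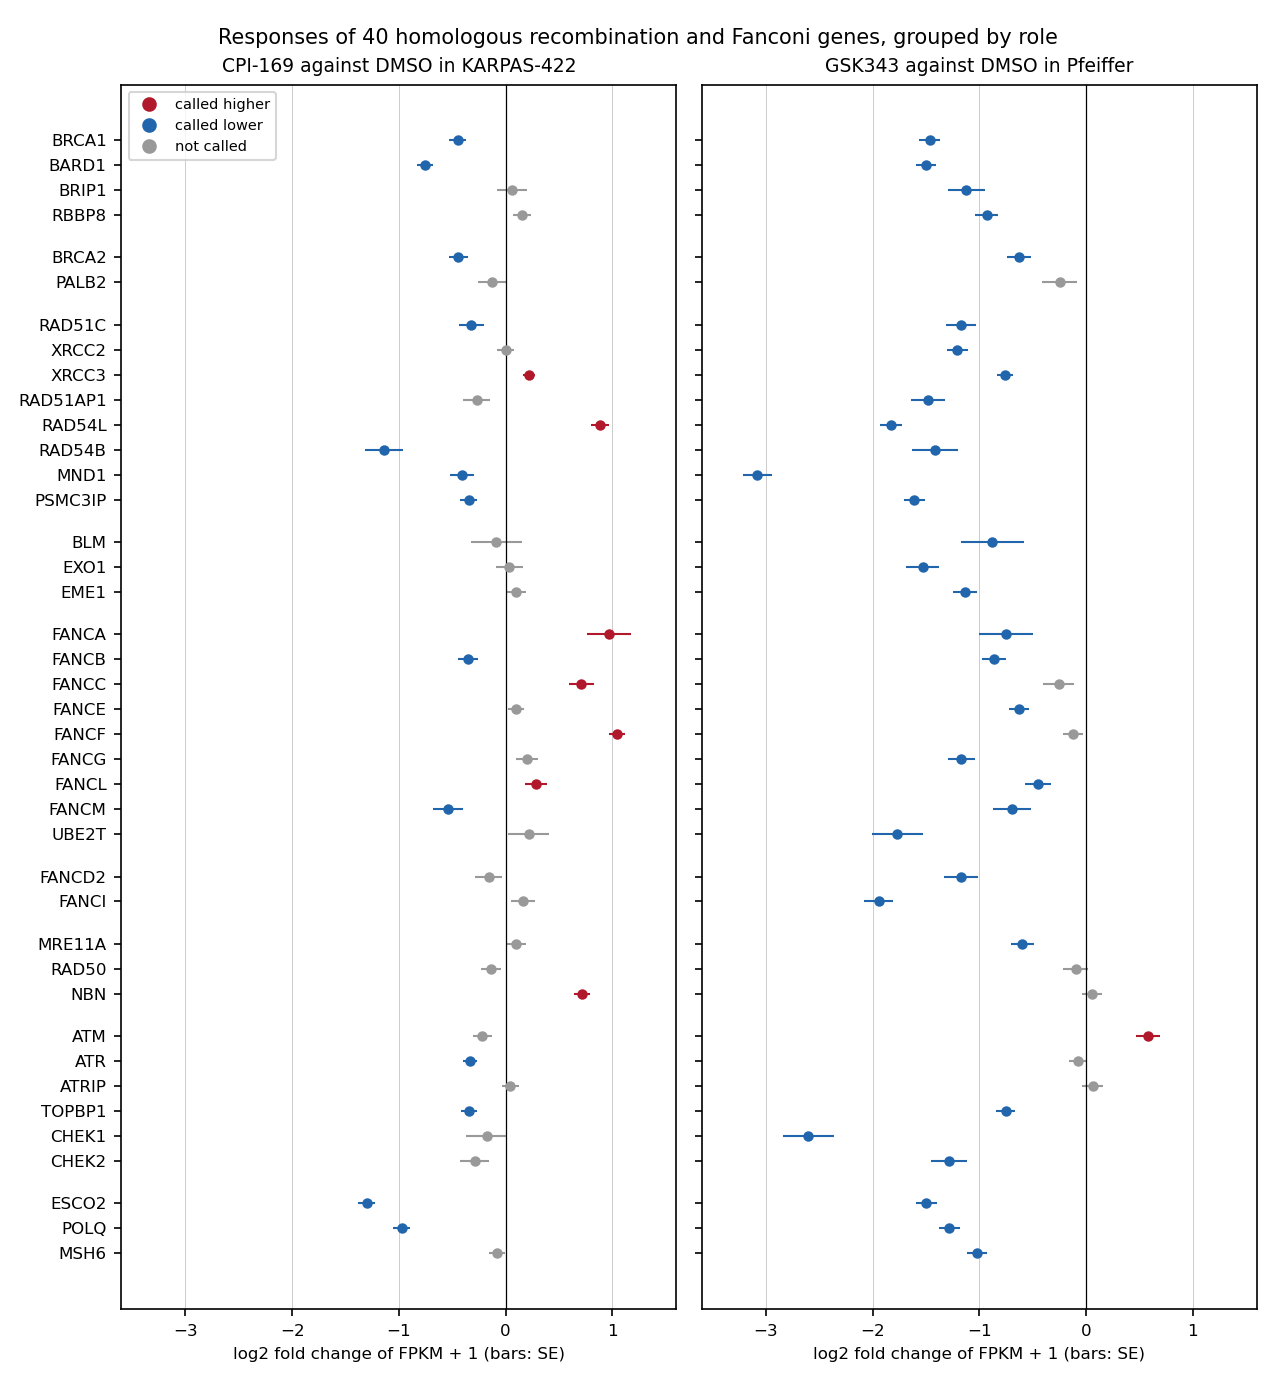
Log2 fold change (of FPKM + 1) of each of the 40 genes, with its standard error as a bar, for CPI-169 against DMSO in KARPAS-422 (left) and GSK343 against DMSO in Pfeiffer (right), with genes grouped by role. In Pfeiffer 32 genes are called lower and ATM is called higher, and in KARPAS-422 7 are called higher and 13 lower.

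The promoters of the set were searched for short sequence words known from cell cycle genes. RefSeq (GRCh38.p14) lists promoter windows, from 250 bases before to 50 bases after a gene's start, for 36 of the 40 genes; for MRE11A the entry is under the symbol MRE11. Words bound by E2F factors were counted as any of TTTCCCGC, TTTGGCGC, TTTCGCGC or TTTGCCGC on either strand, in any of a gene's listed windows. They were present in 9 of 36 members (25.0%), in 629 of 9384 tested genes with an entry (6.7%) and in 1090 of 27305 genes with an entry (3.99%). By response, 8 of 29 members called lower in Pfeiffer held such a word, and 1 of the 7 members not called lower there did. The CHR element TTTGAA was present in 5 of 36 members (13.9%) and in 13.7% of tested genes, and the CCAAT box (CCAAT) in 18 of 36 members, against 43.5% of tested genes. These counts describe letters in the windows and come with no test. Promoter positions are in GRCh38.p14, and gene positions given with the values below are in hg19. The 200 bases before the start are shown for the gene with the lowest fold change in Pfeiffer (MND1, chr4:153344488-153344687, plus strand), for a gene with opposite calls in the treated lines (FANCA, chr16:89816648-89816847, minus strand) and for a gene called higher in KARPAS-422 and not called in Pfeiffer (FANCC, chr9:95317710-95317909, minus strand), each 5′ to 3′ along the gene, with E2F words in capitals.
MND1: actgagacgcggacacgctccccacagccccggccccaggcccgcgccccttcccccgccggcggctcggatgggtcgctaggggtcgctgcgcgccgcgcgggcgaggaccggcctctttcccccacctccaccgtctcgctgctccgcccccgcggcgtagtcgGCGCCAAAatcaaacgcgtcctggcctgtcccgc
FANCA: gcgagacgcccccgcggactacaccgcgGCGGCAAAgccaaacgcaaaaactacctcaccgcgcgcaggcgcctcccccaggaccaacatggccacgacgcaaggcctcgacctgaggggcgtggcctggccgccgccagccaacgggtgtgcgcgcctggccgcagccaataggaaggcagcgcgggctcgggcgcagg
FANCC: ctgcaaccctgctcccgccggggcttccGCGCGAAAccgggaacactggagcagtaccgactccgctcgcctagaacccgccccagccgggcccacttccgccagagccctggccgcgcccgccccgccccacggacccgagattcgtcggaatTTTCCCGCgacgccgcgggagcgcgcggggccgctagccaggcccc
The stretches of MND1 and FANCA held 1 such word each and that of FANCC held 2. These genes were chosen among those that hold a word: of the other genes with opposite calls, RAD54L, XRCC3 and FANCL held none, and neither did FANCF, which was called higher in KARPAS-422 and not called in Pfeiffer like FANCC. MND1 and FANCC have 2 listed starts each, of which 1 is shown.

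BRCA1, BARD1, BRIP1 and RBBP8 were lower in Pfeiffer in 4 of 4 cases, where 17.5% of all tested genes were lower. BRCA1 (hg19 chr17:41196311-41277500), a ubiquitin ligase that directs broken ends into recombination, had 13.5, 13.2 and 11.8 FPKM with CPI-169, against 17.9, 19.1 and 16.8 FPKM with DMSO in KARPAS-422. In Pfeiffer BRCA1 had 11.6 and 10.5 FPKM with GSK343, against 31.5 and 33.3 FPKM with DMSO. The treated libraries lay below the DMSO libraries without overlap in both lines. For BRCA1 the log2 fold change was -0.45 ± 0.082 (SE; limma adjusted p = 0.000799) in KARPAS-422 and -1.47 ± 0.10 (limma adjusted p = 5.53e-06) in Pfeiffer, and the responses differed by 1.02 ± 0.13 (limma adjusted p = 0.000177).

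BARD1 (chr2:215590369-215674428), the obligate partner of BRCA1 in the ligase, had 5.76, 6.91 and 6.55 FPKM with CPI-169, against 11.7, 11.6 and 11.1 FPKM with DMSO in KARPAS-422. It had 1.90 and 1.93 FPKM with GSK343, against 7.35 and 7.14 FPKM with DMSO in Pfeiffer. Again no treated library reached the DMSO libraries. For BARD1 the log2 fold change was -0.75 ± 0.077 in KARPAS-422 (limma adjusted p = 1.46e-05) and -1.50 ± 0.095 in Pfeiffer (limma adjusted p = 3.79e-06). BRIP1, a helicase that binds BRCA1, and RBBP8, which starts end resection, were lower in Pfeiffer, with log2 fold changes of -1.12 and -0.93, and did not pass in KARPAS-422, with values of 0.059 and 0.15.

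BRCA2 changed less than BRCA1 in Pfeiffer, and PALB2 did not pass in either line. BRCA2 (chr13:32889610-32973805), which acts on the resected single strand, had 4.20, 4.25 and 4.30 FPKM with CPI-169, against 6.57, 5.32 and 6.64 FPKM with DMSO in KARPAS-422. In Pfeiffer BRCA2 had 3.09 and 2.72 FPKM with GSK343, against 4.89 and 5.19 FPKM with DMSO. The treated libraries were below every DMSO library of their line. For BRCA2 the log2 fold change was -0.44 ± 0.089 in KARPAS-422 (limma adjusted p = 0.0015) and -0.63 ± 0.11 in Pfeiffer (limma adjusted p = 0.00179), and the difference between the responses, 0.19 ± 0.14, did not pass (limma adjusted p = 0.311).

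PALB2 (chr16:23614487-23652631), the bridge between BRCA1 and BRCA2, had 8.36, 7.68 and 7.31 FPKM with CPI-169, against 8.02, 8.26 and 9.46 FPKM with DMSO in KARPAS-422. It had 11.4 and 16.4 FPKM with GSK343, against 14.5 and 18.7 FPKM with DMSO in Pfeiffer. The groups overlapped in both lines. For PALB2 the log2 fold change was -0.12 ± 0.13 in KARPAS-422 (limma adjusted p = 0.479) and -0.25 ± 0.16 in Pfeiffer (limma adjusted p = 0.28). Without GSK343 replicate 2 the log2 fold change of PALB2 in Pfeiffer was -0.50, and without GSK343 replicate 1 it was -0.0037.

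Among the strand exchange genes were the lowest fold change of the set (MND1 in Pfeiffer) and the greatest difference between the responses (RAD54L). All 8 were lower in Pfeiffer, with a median log2 fold change of -1.45, where 17.5% of all tested genes were lower. In KARPAS-422 2 were higher, 4 were lower and 2 did not pass, where 26.9% of all tested genes were higher and 27.3% lower. MND1 (chr4:154265800-154336270) forms a dimer with PSMC3IP that helps a strand invade a duplex and is best known from meiosis. MND1 had 28.4, 24.8 and 25.7 FPKM with CPI-169, against 30.4, 39.3 and 36.4 FPKM with DMSO in KARPAS-422. In Pfeiffer MND1 had 3.53 and 2.88 FPKM with GSK343, against 38.0 and 31.2 FPKM with DMSO. With DMSO its ranges overlapped between KARPAS-422 and Pfeiffer, and with GSK343 both libraries lay far below them. For MND1 the log2 fold change was -0.41 ± 0.11 in KARPAS-422 (limma adjusted p = 0.00948) and -3.08 ± 0.14 in Pfeiffer (limma adjusted p = 6.96e-07), and the responses differed by 2.67 ± 0.18 (limma adjusted p = 3.71e-06).

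PSMC3IP (chr17:40724332-40729849), the dimer partner, had 12.6, 11.3 and 12.4 FPKM with CPI-169, against 14.7, 17.4 and 15.1 FPKM with DMSO in KARPAS-422. It had 3.04 and 3.26 FPKM with GSK343, against 12.04 and 11.3 FPKM with DMSO in Pfeiffer. Like MND1 it was lower in both lines, with no overlap, and by more in Pfeiffer. For PSMC3IP the log2 fold change was -0.35 ± 0.082 in KARPAS-422 (limma adjusted p = 0.00417) and -1.61 ± 0.10 in Pfeiffer (limma adjusted p = 3.79e-06), a difference of 1.26 ± 0.13 (limma adjusted p = 4.95e-05).

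RAD54L (chr1:46713359-46744145), a motor protein that helps open the sister duplex, moved in opposite directions. It had 4.74, 4.19 and 3.89 FPKM with CPI-169, against 1.96, 1.85 and 1.77 FPKM with DMSO in KARPAS-422. In Pfeiffer RAD54L had 3.21 and 3.65 FPKM with GSK343, against 13.9 and 15.5 FPKM with DMSO. The treated libraries of both lines ended at similar levels, above the low DMSO level of KARPAS-422 and below the high DMSO level of Pfeiffer. For RAD54L the log2 fold change was 0.88 ± 0.085 in KARPAS-422 (limma adjusted p = 9.81e-06) and -1.83 ± 0.10 in Pfeiffer (limma adjusted p = 2.13e-06). The difference of 2.71 ± 0.13 had the smallest adjusted p of the set (limma adjusted p = 7.52e-07).

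XRCC3 (chr14:104163945-104181841), a strand exchange factor, showed the same opposition at a smaller size. It had 29.0, 27.8 and 29.6 FPKM with CPI-169, against 25.3, 23.8 and 24.7 FPKM with DMSO in KARPAS-422. It had 8.82 and 9.15 FPKM with GSK343, against 15.8 and 16.0 FPKM with DMSO in Pfeiffer. No library overlapped the other treatment of its line. For XRCC3 the log2 fold change was 0.22 ± 0.060 in KARPAS-422 (limma adjusted p = 0.00946), a call lost with median scaling and with the replicate block, and -0.76 ± 0.073 in Pfeiffer (limma adjusted p = 4.46e-05). The responses differed by 0.98 ± 0.094 (limma adjusted p = 3.31e-05).

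RAD54B, a relative of RAD54L, did not follow it. It had 5.83, 5.45 and 4.92 FPKM with CPI-169, against 11.98, 14.3 and 12.9 FPKM with DMSO in KARPAS-422. In Pfeiffer RAD54B had 5.89 and 2.80 FPKM with GSK343, against 13.9 and 11.5 FPKM with DMSO. Every treated library was below every DMSO library, and the GSK343 libraries differed from each other. For RAD54B the log2 fold change was -1.14 ± 0.18 in KARPAS-422 (limma adjusted p = 0.000317) and -1.42 ± 0.22 in Pfeiffer (limma adjusted p = 0.000941), and the difference of 0.28 ± 0.28 did not pass (limma adjusted p = 0.453). Without GSK343 replicate 1 the difference was 0.71, and without GSK343 replicate 2 it was -0.15.

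Of the other strand exchange genes, the strand exchange factor RAD51C was lower in both lines, with log2 fold changes of -0.32 in KARPAS-422 and -1.17 in Pfeiffer, although the KARPAS-422 call was lost in 9 of 21 alternative settings. XRCC2, a partner of RAD51C in repair, and RAD51AP1, which promotes strand invasion, were lower in Pfeiffer, with log2 fold changes of -1.21 and -1.48, and did not pass in KARPAS-422, with values of 0.00043 and -0.27.

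**Figure D2:**
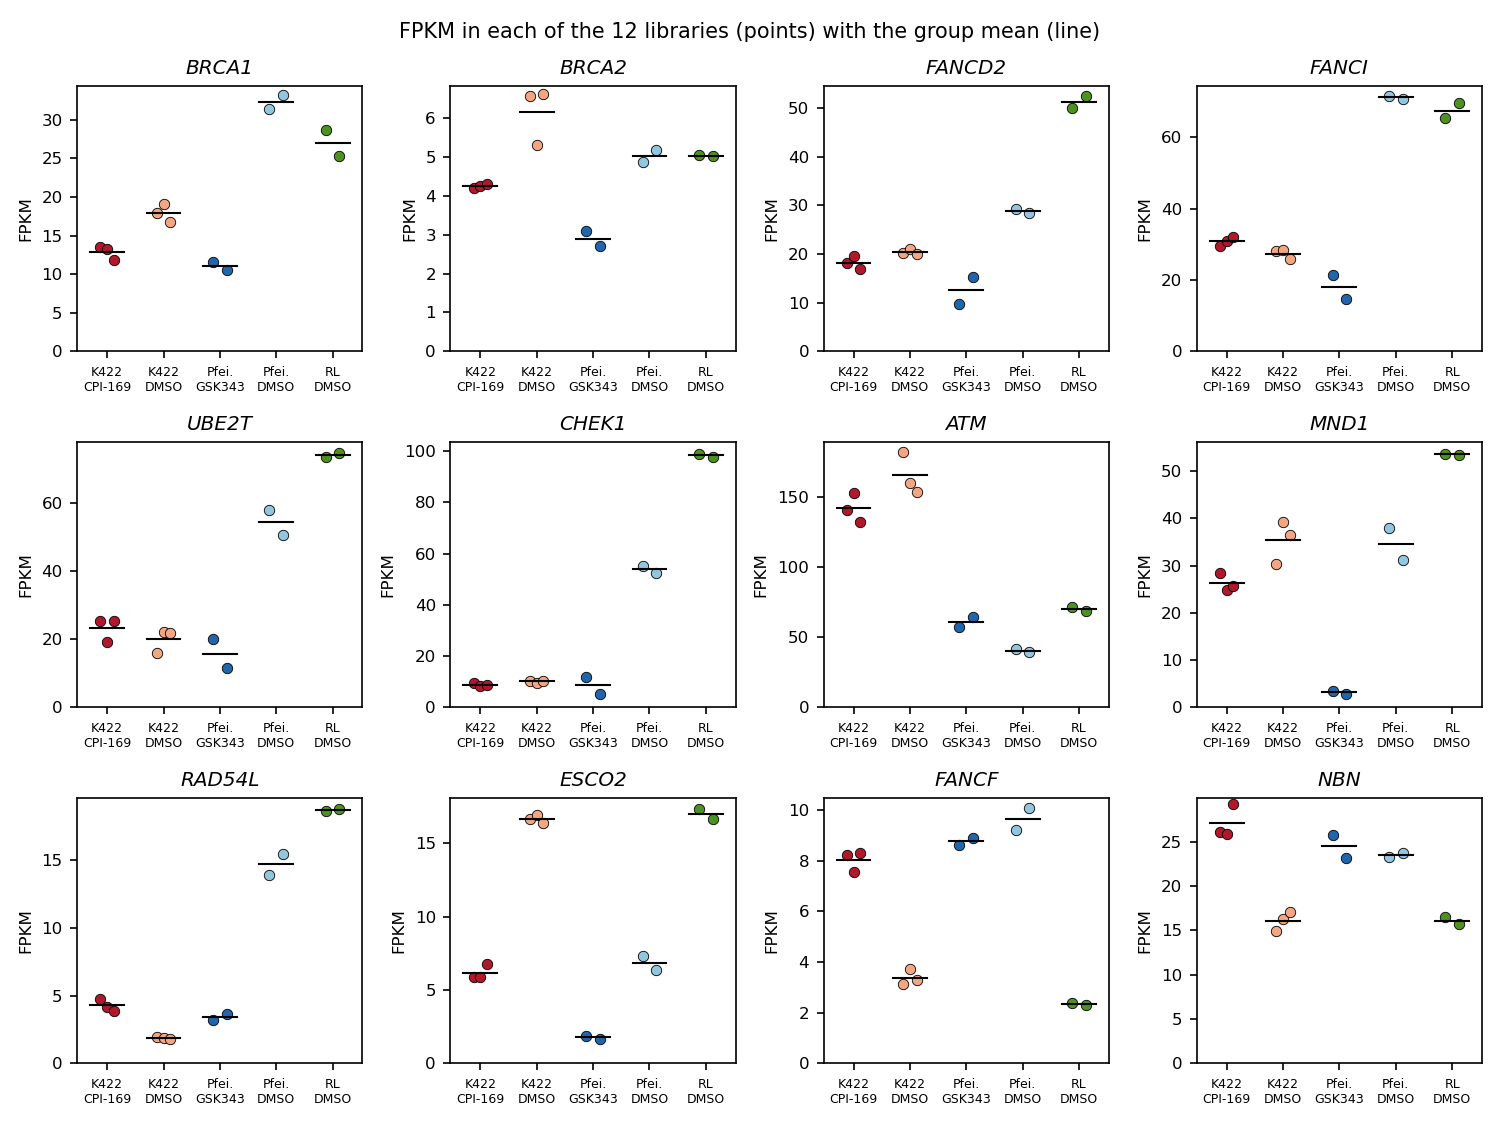
FPKM of 12 of the genes in each of the 12 libraries (points) with the group mean (line), by line and treatment. MND1, CHEK1 and FANCI are several fold lower with GSK343 than with DMSO in Pfeiffer, RAD54L moves in opposite directions in the treated lines, and ESCO2 is lower with treatment in both.

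The helicase gene BLM and the nuclease genes EXO1 and EME1 were lower in Pfeiffer in 3 of 3 cases, and none passed in KARPAS-422. Of all tested genes 17.5% were lower in Pfeiffer and 54.2% were called in KARPAS-422. EXO1, an exonuclease of end resection, and EME1, the partner of the nuclease MUS81, had log2 fold changes of -1.53 and -1.14 in Pfeiffer and of 0.036 and 0.10 in KARPAS-422. BLM (chr15:91260557-91358859), the helicase that takes crossed strands apart, had 8.31, 9.21 and 8.63 FPKM with CPI-169, against 9.93, 8.72 and 9.31 FPKM with DMSO in KARPAS-422. In Pfeiffer BLM had 20.6 and 51.8 FPKM with GSK343, against 61.8 and 60.4 FPKM with DMSO. GSK343 replicate 1 stood far below DMSO and replicate 2 only slightly below. The log2 fold change of -0.88 ± 0.29 in Pfeiffer just passed (limma adjusted p = 0.0457), and the call was lost in 16 of 21 alternative settings, with limma adjusted p-values from 4.12e-06 to 0.315 over all of them. Without GSK343 replicate 2 the log2 fold change was -1.53, and without GSK343 replicate 1 it was -0.23. The difference between the responses, 0.79 ± 0.38, did not pass (limma adjusted p = 0.117). This difference was 1.44 without GSK343 replicate 2 and 0.15 without GSK343 replicate 1.

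The Fanconi core complex and UBE2T were split in KARPAS-422. With CPI-169, 4 of these 9 genes were higher, 2 were lower and 3 did not pass, where 26.9% of all tested genes were higher and 27.3% lower. With GSK343 in Pfeiffer 7 were lower and 2 did not pass, where 17.5% of all tested genes were lower. FANCF (chr11:22644078-22647387), an adaptor of the core complex, had 8.22, 7.54 and 8.33 FPKM with CPI-169, against 3.15, 3.73 and 3.27 FPKM with DMSO in KARPAS-422. In Pfeiffer FANCF had 8.64 and 8.90 FPKM with GSK343, against 9.22 and 10.1 FPKM with DMSO. FANCF thus had the highest fold change of the set in KARPAS-422, where the CPI-169 libraries came near the levels of Pfeiffer, and the GSK343 libraries lay just below DMSO. For FANCF the log2 fold change was 1.04 ± 0.079 in KARPAS-422 (limma adjusted p = 1.88e-06) and -0.12 ± 0.097 in Pfeiffer (limma adjusted p = 0.369), and the responses differed by 1.17 ± 0.12 (limma adjusted p = 6.57e-05).

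FANCA (chr16:89803956-89883065), a large scaffold subunit, had 13.4, 18.6 and 17.6 FPKM with CPI-169, against 10.6, 6.39 and 7.13 FPKM with DMSO in KARPAS-422. It had 18.1 and 30.9 FPKM with GSK343, against 40.9 and 40.4 FPKM with DMSO in Pfeiffer. The groups did not overlap in either line, but the replicates of treated Pfeiffer cells and of KARPAS-422 were spread. For FANCA the log2 fold change was 0.97 ± 0.21 in KARPAS-422 (limma adjusted p = 0.00228) and -0.75 ± 0.25 in Pfeiffer (limma adjusted p = 0.0467, from 0.00806 to 0.238 over the alternatives). The Pfeiffer call was lost in 15 of 21 alternative settings, and the difference of 1.72 ± 0.33 between the responses was kept in all of them (limma adjusted p = 0.00197).

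FANCC (chr9:97861335-98079991), another core subunit, had 3.69, 4.66 and 4.52 FPKM with CPI-169, against 2.10, 2.10 and 2.49 FPKM with DMSO in KARPAS-422. It had 2.28 and 1.42 FPKM with GSK343, against 2.38 and 2.36 FPKM with DMSO in Pfeiffer. The CPI-169 libraries were all above DMSO, and 1 of the GSK343 libraries was close to DMSO. For FANCC the log2 fold change was 0.71 ± 0.12 in KARPAS-422 (limma adjusted p = 0.000507) and -0.26 ± 0.15 in Pfeiffer (limma adjusted p = 0.218). The Pfeiffer value was -0.47 without GSK343 replicate 1 and -0.039 without GSK343 replicate 2.

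FANCM (chr14:45605142-45670093), the translocase that anchors the core complex to DNA, was lower in both lines. It had 7.69, 7.84 and 7.15 FPKM with CPI-169, against 10.8, 10.4 and 13.2 FPKM with DMSO in KARPAS-422. In Pfeiffer FANCM had 4.64 and 2.99 FPKM with GSK343, against 7.40 and 6.03 FPKM with DMSO. No treated library reached a DMSO library of its line. For FANCM the log2 fold change was -0.54 ± 0.14 in KARPAS-422 (limma adjusted p = 0.00847) and -0.70 ± 0.18 in Pfeiffer (limma adjusted p = 0.0139), where the call was lost without GSK343 replicate 2, without DMSO replicate 1 and with Pfeiffer fitted on its own.

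UBE2T (chr1:202300784-202311108), the ubiquitin-conjugating enzyme of the pathway, had 25.2, 19.3 and 25.4 FPKM with CPI-169, against 15.8, 22.2 and 21.9 FPKM with DMSO in KARPAS-422. It had 20.1 and 11.4 FPKM with GSK343, against 58.0 and 50.5 FPKM with DMSO in Pfeiffer. The KARPAS-422 groups overlapped, and the Pfeiffer groups were well apart. For UBE2T the log2 fold change was 0.22 ± 0.19 in KARPAS-422 (limma adjusted p = 0.383) and -1.77 ± 0.24 in Pfeiffer (limma adjusted p = 0.000382), and the responses differed by 1.99 ± 0.31 (limma adjusted p = 0.000572).

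The remaining core genes were FANCL, the ubiquitin ligase subunit, and FANCB, FANCE and FANCG, structural subunits. FANCL was higher in KARPAS-422, with a log2 fold change of 0.29 whose call was lost in 7 of 21 alternative settings, and lower in Pfeiffer, with -0.45 and a call lost in 4 of 21. FANCB was lower in both lines, with log2 fold changes of -0.35 in KARPAS-422 and -0.87 in Pfeiffer. FANCE and FANCG were lower in Pfeiffer, at -0.63 and -1.17, and did not pass in KARPAS-422, at 0.10 and 0.20.

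FANCD2 and FANCI, the substrates that the core complex modifies, were both lower in Pfeiffer and did not pass in KARPAS-422. FANCD2 (chr3:10068097-10143614) had 18.2, 19.5 and 16.9 FPKM with CPI-169, against 20.1, 21.1 and 20.0 FPKM with DMSO in KARPAS-422. In Pfeiffer FANCD2 had 9.66 and 15.4 FPKM with GSK343, against 29.2 and 28.4 FPKM with DMSO. The treated libraries lay below DMSO in both lines, by a small margin in KARPAS-422. For FANCD2 the log2 fold change was -0.16 ± 0.13 in KARPAS-422 (limma adjusted p = 0.332), which passed without either GSK343 library, and -1.17 ± 0.16 in Pfeiffer (limma adjusted p = 0.000382). The annotation also holds the pseudogene FANCD2P2, which could share reads with FANCD2.

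FANCI (chr15:89787179-89860492) had 29.5, 30.8 and 32.0 FPKM with CPI-169, against 28.1, 28.4 and 25.8 FPKM with DMSO in KARPAS-422. It had 21.4 and 14.7 FPKM with GSK343, against 71.5 and 70.7 FPKM with DMSO in Pfeiffer. The treated libraries were slightly above DMSO in KARPAS-422 and far below DMSO in Pfeiffer. For FANCI the log2 fold change was 0.16 ± 0.11 in KARPAS-422 (limma adjusted p = 0.251), which passed in 4 of 21 alternative settings, and -1.94 ± 0.14 in Pfeiffer (limma adjusted p = 6.59e-06). The responses differed by 2.10 ± 0.18 (limma adjusted p = 1.43e-05).

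Of the 3 genes of the MRE11 complex, which binds broken ends, 1 was higher in KARPAS-422 and 1 was lower in Pfeiffer. Of all tested genes 26.9% were higher in KARPAS-422 and 17.5% were lower in Pfeiffer. NBN, the subunit that recruits ATM, had 26.1, 25.9 and 29.2 FPKM with CPI-169, against 14.9, 16.3 and 17.1 FPKM with DMSO in KARPAS-422. In Pfeiffer NBN had 25.8 and 23.2 FPKM with GSK343, against 23.3 and 23.7 FPKM with DMSO. The KARPAS-422 groups did not overlap, and the Pfeiffer groups did. For NBN the log2 fold change was 0.72 ± 0.076 in KARPAS-422 (limma adjusted p = 1.99e-05) and 0.057 ± 0.093 in Pfeiffer (limma adjusted p = 0.692), and the responses differed by 0.66 ± 0.12 (limma adjusted p = 0.0016). The nuclease gene MRE11A was lower in Pfeiffer, with a log2 fold change of -0.60, and had 0.097 in KARPAS-422. RAD50, the ATPase that tethers the ends, passed in neither line, at -0.13 in KARPAS-422 and -0.099 in Pfeiffer. Without GSK343 replicate 2 its value in Pfeiffer was -0.31, and without GSK343 replicate 1 it was 0.11.

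Of the 6 checkpoint genes, 3 were lower and 1 was higher with GSK343 in Pfeiffer, where 17.5% of all tested genes were lower and 12% higher. With CPI-169 in KARPAS-422 2 were lower, where 27.3% of all tested genes were. CHEK1 (chr11:125495035-125546150), the effector kinase that holds cells with stalled replication, had 9.41, 8.41 and 8.72 FPKM with CPI-169, against 10.4, 9.64 and 10.3 FPKM with DMSO in KARPAS-422. In Pfeiffer CHEK1 had 11.9 and 5.35 FPKM with GSK343, against 55.2 and 52.6 FPKM with DMSO. Both GSK343 libraries were far below DMSO and near the levels of KARPAS-422. For CHEK1 the log2 fold change was -0.18 ± 0.19 in KARPAS-422 (limma adjusted p = 0.488) and -2.60 ± 0.24 in Pfeiffer (limma adjusted p = 3.1e-05), and the responses differed by 2.43 ± 0.30 (limma adjusted p = 0.000166). In KARPAS-422 CHEK1 passed in 3 of 21 alternative settings, those that left out a GSK343 library or the other lines.

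ATM (chr11:108093210-108239829), the kinase that responds to broken ends, was the 1 gene of the set that was higher with GSK343. It had 141, 153 and 132 FPKM with CPI-169, against 182, 160 and 153 FPKM with DMSO in KARPAS-422. In Pfeiffer ATM had 57.5 and 64.5 FPKM with GSK343, against 41.2 and 39.6 FPKM with DMSO. The treated libraries lay below DMSO in KARPAS-422, where the nearest libraries nearly met, and above DMSO in Pfeiffer. For ATM the log2 fold change was -0.22 ± 0.088 in KARPAS-422 (limma adjusted p = 0.0582, from 0.0246 to 0.203 over the alternatives) and 0.58 ± 0.11 in Pfeiffer (limma adjusted p = 0.0028). ATM was also the 1 member whose difference between the responses was negative and passed, at -0.80 ± 0.14 (limma adjusted p = 0.00121).

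ATR (chr3:142168076-142297668), the kinase that senses stalled replication forks, had 12.8, 12.2 and 12.7 FPKM with CPI-169, against 16.8, 15.4 and 16.0 FPKM with DMSO in KARPAS-422. It had 13.9 and 13.1 FPKM with GSK343, against 13.5 and 15.0 FPKM with DMSO in Pfeiffer. ATR was lower in KARPAS-422 without overlap, and its groups overlapped in Pfeiffer. For ATR the log2 fold change was -0.33 ± 0.069 in KARPAS-422 (limma adjusted p = 0.00185) and -0.075 ± 0.085 in Pfeiffer (limma adjusted p = 0.548), but the difference of -0.26 ± 0.11 did not pass (limma adjusted p = 0.0778). ATRIP, the partner of ATR, passed in neither line, at 0.042 in KARPAS-422 and 0.062 in Pfeiffer.

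TOPBP1 (chr3:133317018-133380737), which switches ATR on, had 60.6, 55.4 and 58.1 FPKM with CPI-169, against 71.1, 75.5 and 74.9 FPKM with DMSO in KARPAS-422. It had 17.7 and 20.9 FPKM with GSK343, against 32.9 and 33.4 FPKM with DMSO in Pfeiffer. It was lower in both lines without overlap, at log2 fold changes of -0.34 in KARPAS-422 and -0.75 in Pfeiffer. CHEK2 (chr22:29083730-29138410), the effector kinase of ATM, had 17.3, 15.1 and 15.8 FPKM with CPI-169, against 18.9, 19.4 and 21.2 FPKM with DMSO in KARPAS-422. In Pfeiffer CHEK2 had 35.4 and 55.8 FPKM with GSK343, against 117 and 104 FPKM with DMSO. CHEK2 did not pass in KARPAS-422, at -0.29, except in 4 of 21 alternative settings, and was lower in Pfeiffer, at -1.29; pseudogenes CHEK2P2 to CHEK2P5 in the annotation could share its reads.

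ESCO2, POLQ and MSH6 complete the set, and the first of these had the lowest fold change in KARPAS-422. ESCO2, an acetyltransferase that locks cohesin onto sister chromatids during replication, had 5.86, 5.86 and 6.78 FPKM with CPI-169, against 16.7, 16.9 and 16.4 FPKM with DMSO in KARPAS-422. In Pfeiffer ESCO2 had 1.88 and 1.65 FPKM with GSK343, against 7.32 and 6.34 FPKM with DMSO. Treated libraries were well below DMSO in both lines. For ESCO2 the log2 fold change was -1.30 ± 0.081 in KARPAS-422 (limma adjusted p = 5.02e-07) and -1.50 ± 0.099 in Pfeiffer (limma adjusted p = 4.86e-06), and the difference of 0.20 ± 0.13 did not pass (limma adjusted p = 0.242), though it did with a pseudocount of 0.1 and with quantile normalization.

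POLQ (chr3:121150277-121264853), the polymerase of an error-prone end-joining route that acts where recombination fails, had 3.92, 4.16 and 4.40 FPKM with CPI-169, against 9.30, 9.32 and 8.77 FPKM with DMSO in KARPAS-422. It had 1.39 and 1.56 FPKM with GSK343, against 5.40 and 4.64 FPKM with DMSO in Pfeiffer. It resembled ESCO2 in being clearly lower in both lines. For POLQ the log2 fold change was -0.97 ± 0.080 in KARPAS-422 (limma adjusted p = 3.27e-06) and -1.28 ± 0.099 in Pfeiffer (limma adjusted p = 1.17e-05). The difference of 0.31 ± 0.13 did not pass (limma adjusted p = 0.0753). Among the alternatives it passed with pseudocounts of 0.1 and 0.5 and with quantile normalization. MSH6, a mismatch recognition protein, was lower in Pfeiffer at -1.02 and did not pass in KARPAS-422 at -0.083.

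Set side by side, the treatment responses differed for most of the set. The CPI-169 response in KARPAS-422 minus the GSK343 response in Pfeiffer was positive and passed for 29 of the 40 genes, negative and passed for ATM, and did not pass for 10 (ATR, RAD50, ATRIP, PALB2, FANCM, BRCA2, ESCO2, RAD54B, POLQ and BLM). Across all tested genes 42.6% passed, 23.8% positive and 18.8% negative, and 55.9% of the calls were positive, against 45.8% after median scaling, which left 29 members positive and 2 negative. The median difference was 0.95 log2 units for the 40 genes, against 0.072 for all tested genes. All 22 S phase and mitosis markers also passed with a positive difference.

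By calls in both lines, 12 genes were lower in each: BRCA1, BRCA2, BARD1, RAD51C, RAD54B, MND1, PSMC3IP, FANCB, FANCM, TOPBP1, ESCO2 and POLQ. Of all tested genes 7.02% had that pattern. Another 4 genes, RAD54L, XRCC3, FANCA and FANCL, were called higher in KARPAS-422 and lower in Pfeiffer, a pattern of 3.18% of all tested genes. XRCC3 and FANCL lost the KARPAS-422 call in some alternative settings. In Pfeiffer FANCA lost its call in most of them and FANCL in some. No member was called higher in both lines, as 5.65% of all tested genes were, and no member was called lower in KARPAS-422 and higher in Pfeiffer, as 1.68% were. A further 16 genes were called in Pfeiffer alone as lower, FANCC, FANCF and NBN in KARPAS-422 alone as higher, ATR in KARPAS-422 alone as lower and ATM in Pfeiffer alone as higher. PALB2, ATRIP and RAD50 were called in neither line.

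**Figure D3:**
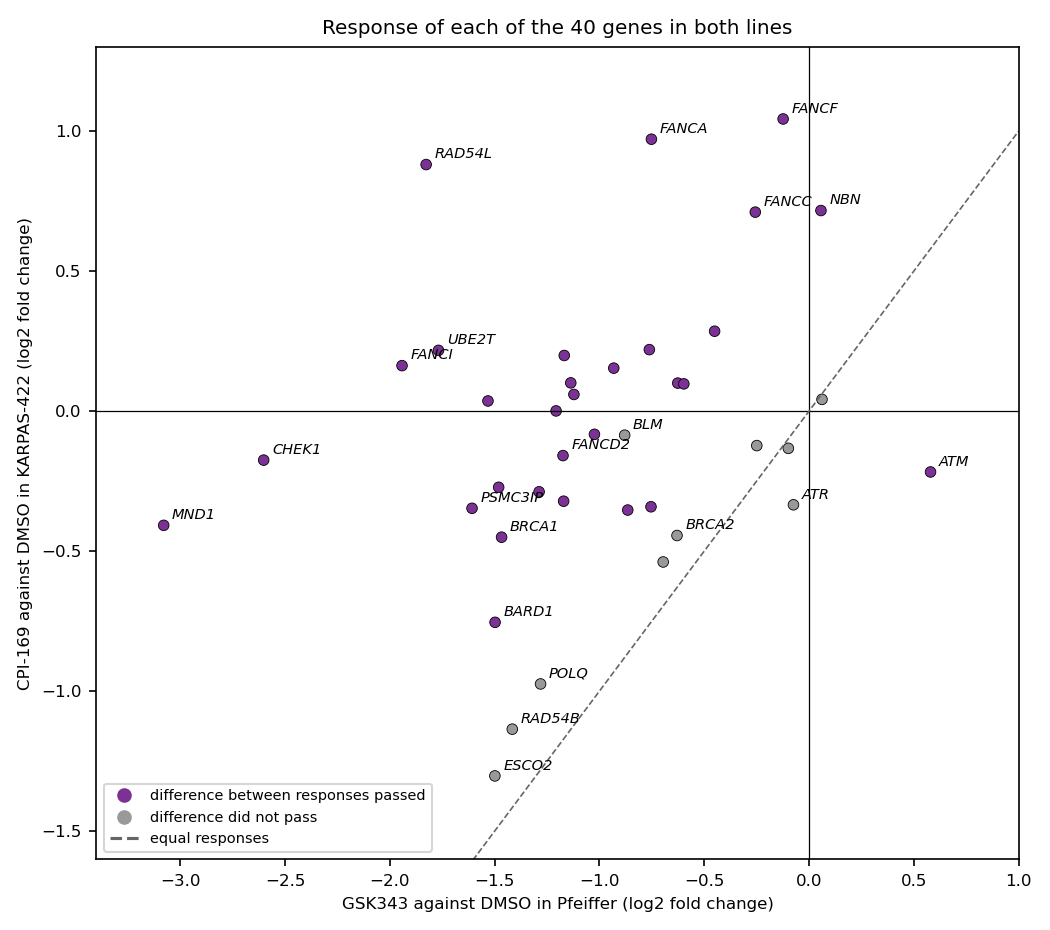
Log2 fold change of each gene with CPI-169 in KARPAS-422 (vertical axis) against its log2 fold change with GSK343 in Pfeiffer (horizontal axis), with genes whose difference between responses passed in purple and the dashed line marking equal responses. ESCO2, RAD54B and POLQ lie near the dashed line, MND1 and CHEK1 lie far to its left, and ATM lies to its right.

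The GSK343 libraries shared the direction for nearly all members although their sizes differed. Set against the DMSO mean, the median log2 difference of the 40 genes was -1.10 in replicate 1 and -0.88 in replicate 2. Both GSK343 libraries lay below both DMSO libraries for 34 members, as they did for 34% of all tested genes. BLM was at -1.53 in replicate 1 and -0.23 in replicate 2, whereas CHEK1 was at -2.09 and -3.11 and UBE2T at -1.39 and -2.15. With replicate 1 or replicate 2 left out, the GSK343 group has 1 library and no spread of its own, so its test rests on the other groups. The median log2 fold change of the members was -0.88 without replicate 1 and -1.10 without replicate 2. In the CPI-169 libraries the corresponding medians were -0.11, -0.086 and -0.11. Because the spread of a gene is estimated once over all groups, the scatter of the GSK343 libraries also enters the KARPAS-422 test; without replicate 1 of them 9 members were higher and 18 lower in KARPAS-422, while over all tested genes 5830 were higher and 5779 lower, against 5047 and 5106 with it, and without replicate 2 the members' counts were the same.

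**Figure D4:**
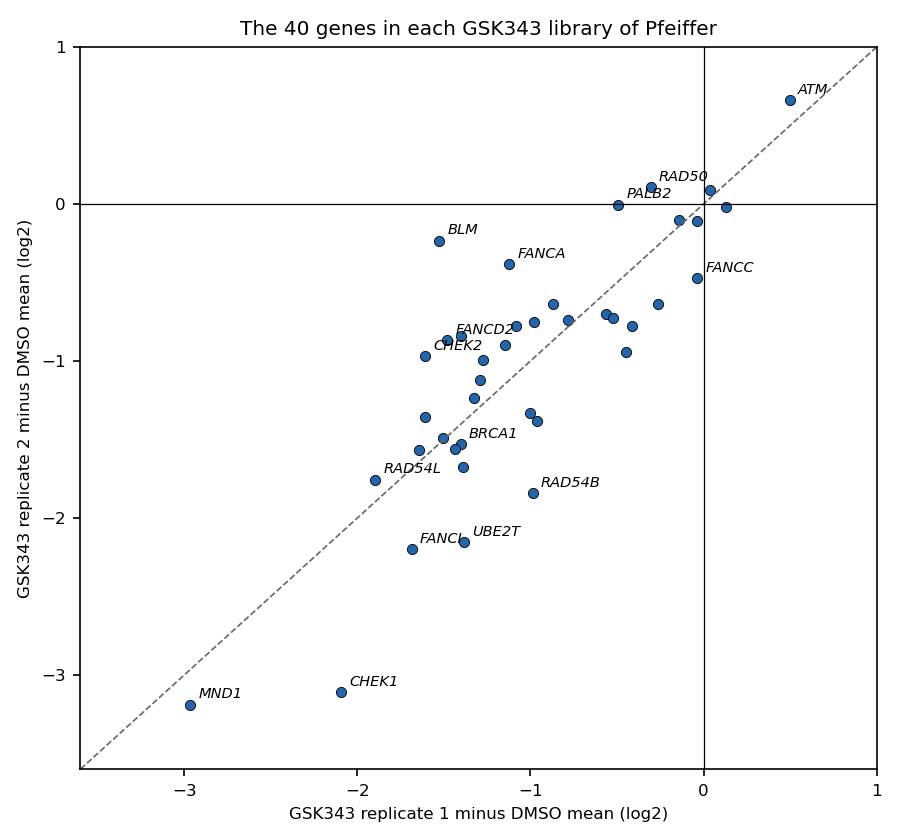
Log2 difference of each of the 40 genes from the mean of the DMSO libraries of Pfeiffer, in GSK343 replicate 1 (horizontal axis) and GSK343 replicate 2 (vertical axis), with the dashed line marking equal values. Most genes are below 0 in both libraries, and BLM, FANCA and CHEK1 lie far from the dashed line.

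With DMSO alone the lines differed in most of the set, as in most tested genes. RL was higher than KARPAS-422 for 23 of the 40 genes and lower for 7, while 66.8% of all tested genes were called, 33.6% higher and 33.2% lower. RL was higher than Pfeiffer for 21 and lower for 9, while 74.3% of all tested genes were called, 35.6% higher and 38.7% lower. KARPAS-422 was higher than Pfeiffer for 15 and lower for 19, while 83% of all tested genes were called, 39.8% higher and 43.2% lower. The median log2 difference of the 40 genes was 0.34 for RL over KARPAS-422, 0.46 for RL over Pfeiffer and -0.051 for KARPAS-422 over Pfeiffer. The median level of the 40 genes was 18.97 FPKM in RL, 14.4 FPKM in KARPAS-422 and 15.1 FPKM in Pfeiffer. Of the 22 S phase and mitosis markers, 20 were higher and 0 lower in RL than in KARPAS-422 (median log2 difference 1.53). Against Pfeiffer, 13 were higher and 1 lower in RL (0.41), and 3 were higher and 16 lower in KARPAS-422 (-1.04). The part of these markers in the differences between lines was not tested. Groups did not overlap for 26 members higher and 11 lower in RL than in KARPAS-422 (40.6% and 39.4% of all tested genes), for 24 higher and 12 lower in RL than in Pfeiffer (44.2% and 46.8%), and for 16 higher and 19 lower in KARPAS-422 than in Pfeiffer (43.1% and 46.8%). These comparisons share DMSO libraries with each other and with the treatment comparisons. Quantile normalization moved the median over all tested genes to 0.126 for RL over Pfeiffer, against -0.025 without it, and to 0.10 for KARPAS-422 over Pfeiffer, against -0.057, and left 20 and 15 members higher and 10 and 18 lower in these comparisons.

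Against KARPAS-422, RL was higher most in CHEK1, RAD54L and FANCA and lower most in MRE11A, ATM and FANCM. CHEK1 had 98.9 and 97.9 FPKM in RL, against 10.4, 9.64 and 10.3 FPKM in KARPAS-422 (log2 difference 3.16 ± 0.21, limma adjusted p = 2.45e-07). RAD54L had 18.7 and 18.7 FPKM in RL, against 1.96, 1.85 and 1.77 FPKM in KARPAS-422 (log2 difference 2.79 ± 0.095, limma adjusted p = 1.2e-09). FANCA had 55.9 and 53.0 FPKM in RL, against 10.6, 6.39 and 7.13 FPKM in KARPAS-422 (log2 difference 2.64 ± 0.23, limma adjusted p = 1.78e-06). None of these groups overlapped. Pfeiffer was closer to RL in these genes: RL was called higher in CHEK1, at 0.86 (limma adjusted p = 0.00683), and in RAD54L, at 0.33 (limma adjusted p = 0.0146, a call lost in 4 of 21 alternative settings), and FANCA did not pass, at 0.41 (limma adjusted p = 0.163). MRE11A (chr11:94152894-94227074), the nuclease of the MRE11 complex, had 8.10 and 7.79 FPKM in RL, against 31.6, 35.4 and 35.1 FPKM in KARPAS-422 and 31.0 and 31.6 FPKM in Pfeiffer. It was lower in RL than in KARPAS-422, at a log2 difference of -1.97 ± 0.10 (limma adjusted p = 2.68e-08), and than in Pfeiffer, at -1.85 ± 0.11 (limma adjusted p = 7.24e-08). RAD50 was likewise lower in RL than in KARPAS-422, at -0.78, and than in Pfeiffer, at -1.24.

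ATM separated all the lines. It had 71.6 and 68.8 FPKM in RL, against 182, 160 and 153 FPKM in KARPAS-422 and 41.2 and 39.6 FPKM in Pfeiffer, so that KARPAS-422 was highest and Pfeiffer lowest without overlap. The log2 difference was -1.22 ± 0.099 for RL over KARPAS-422 (limma adjusted p = 9.49e-07) and 2.00 ± 0.099 for KARPAS-422 over Pfeiffer (limma adjusted p = 9.46e-09). FANCM had 5.48 and 6.98 FPKM in RL, against 10.8, 10.4 and 13.2 FPKM in KARPAS-422 (log2 difference -0.79, limma adjusted p = 0.00117).

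Against Pfeiffer, RL was highest for XRCC2, RAD51AP1 and FANCE. XRCC2 (chr7:152341863-152373250) had 18.7 and 17.7 FPKM in RL, against 5.37 and 5.58 FPKM in Pfeiffer (log2 difference 1.57 ± 0.097, limma adjusted p = 9.7e-08). RAD51AP1 (chr12:4647949-4669214) had 36.6 and 36.6 FPKM in RL, against 14.2 and 15.1 FPKM in Pfeiffer (log2 difference 1.27 ± 0.16, limma adjusted p = 2.82e-05). FANCE (chr6:35420137-35434880) had 10.6 and 10.3 FPKM in RL, against 3.77 and 3.75 FPKM in Pfeiffer (log2 difference 1.27 ± 0.093, limma adjusted p = 3.86e-07). All of these pairs of groups were far apart. FANCF had 2.38 and 2.32 FPKM in RL, against 9.22 and 10.1 FPKM in Pfeiffer (log2 difference -1.67, limma adjusted p = 5.73e-08), and CHEK2 had 44.1 and 45.8 FPKM in RL, against 117 and 104 FPKM in Pfeiffer (log2 difference -1.27, limma adjusted p = 4.22e-05).

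KARPAS-422 exceeded Pfeiffer most for ATM, ESCO2 and TOPBP1, with log2 differences of 2.00, 1.18 and 1.13, and was lowest against it for BLM, RAD54L and CHEK2, with -2.59, -2.46 and -2.42. BLM had 9.93, 8.72 and 9.31 FPKM in KARPAS-422, against 61.8 and 60.4 FPKM in Pfeiffer. ESCO2 had 17.3 and 16.7 FPKM in RL, 16.7, 16.9 and 16.4 FPKM in KARPAS-422 and 7.32 and 6.34 FPKM in Pfeiffer. RL and KARPAS-422 did not differ detectably in ESCO2 (log2 difference 0.027 ± 0.090, limma adjusted p = 0.831), and the same held for NBN (0.00040 ± 0.085, limma adjusted p = 1). MND1 did not differ detectably between KARPAS-422 and Pfeiffer with DMSO (0.029 ± 0.12, limma adjusted p = 0.835), although its treatment responses were far apart.

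**Figure D5:**
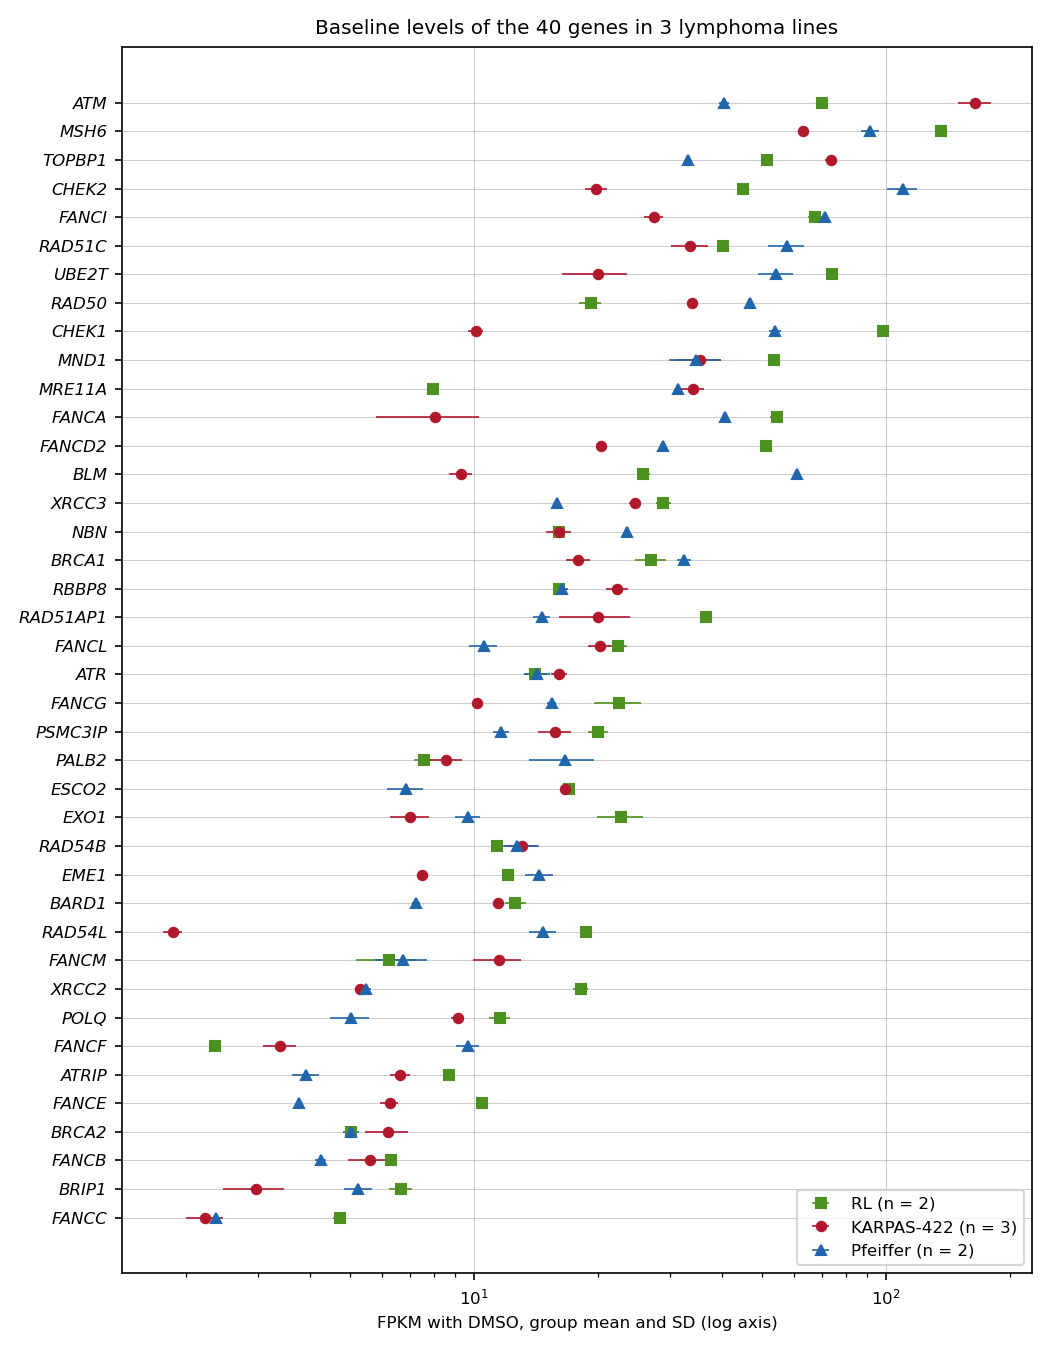
FPKM with DMSO of each of the 40 genes in RL, KARPAS-422 and Pfeiffer (log axis), as group mean and SD, with genes ordered by their mean over all libraries. The genes run from 1.86 FPKM (RAD54L in KARPAS-422) to 165 FPKM (ATM in KARPAS-422), and CHEK1, RAD54L, FANCA and BLM are lowest in KARPAS-422 while MRE11A is lowest in RL.

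The same pathways hold further genes outside the set, and their counts stand beside 17.5% lower and 12% higher among all tested genes with GSK343, and 27.3% lower and 26.9% higher with CPI-169. Of 24 other homologous recombination genes, 12 were lower and 1 was higher with GSK343, with a median log2 fold change of -0.41, and 10 were lower and 5 higher with CPI-169 in KARPAS-422. Among them the nuclease and helicase DNA2 was lower in Pfeiffer (-1.63), and in KARPAS-422 the helicase WRN was lower (-1.33) and the recombination cofactor SFR1 was higher (1.15). Of 18 other Fanconi pathway genes, 6 were lower and 3 higher with GSK343, among them UHRF1 (-1.68) and USP1, which removes ubiquitin from FANCD2 (-1.17), and 6 were lower and 5 higher with CPI-169, among them REV3L, the catalytic subunit of a translesion polymerase (-0.91), and C17orf70, a core complex partner (1.38). Of 13 other replication checkpoint genes, 7 were lower and 0 higher with GSK343, where 2254 genes were higher in the whole table, and 6 were lower and 4 higher with CPI-169. TIMELESS, which protects replication forks, had a log2 fold change of 0.97 with CPI-169 in KARPAS-422 (limma adjusted p = 4.28e-07) and of -1.30 with GSK343 in Pfeiffer (limma adjusted p = 1.78e-06), the same opposition as RAD54L.

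Overlapping genes limit single values. In hg19, 22 of the 40 loci overlap at least 1 other tested gene, among them RAD54L with LRRC41, FANCI with POLG, FANCA with ZNF276, CHEK1 with STT3A, NBN with DECR1, XRCC3 with KLC1, ATM with NPAT and ESCO2 with CCDC25 and PBK. How the counting treated strands is not given in the sources used here, so that reads of such neighbours could have been split between them. BRCA1, BRCA2, BARD1, PALB2, MND1, UBE2T, TOPBP1 and FANCM overlap no tested gene.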

How the data were processed

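RNA of 12 libraries was sequenced, and the authors deposited 1 table of FPKM values for 63129 gene entries. The submitters' processing notes name hg19, TopHat 1.4.1 and Cufflinks. The Cufflinks version, annotation release, library kit and handling of strand were not given in the sources used here. Without read counts the depth cannot be known, and intervals for counting error are left out. Cells were lysed in Trizol or in RLT buffer per the labels' protocols, which do not say which library had which. Columns were matched to samples by title, and groups and replicate numbers come from the labels.

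From the deposited FPKM values, 77 entries with missing values were left out and the 18731 genes that reached 1 FPKM in 2 or more libraries were kept. A single limma model (version 3.58.1, R 4.3.3, with intensity trend) over the 5 groups was applied to log2(FPKM + 1); it had 7 residual degrees of freedom and 3.45 from the prior. A call is a Benjamini-Hochberg adjusted p under 0.05 over all tested genes. The fit was tested on simulated data in which each gene had its own spread, equal in every group. That simulation could not show how the wider scatter of the GSK343 libraries affects their tests. The contrasts were the 2 treatment comparisons, their difference and 3 comparisons of lines with DMSO. Alternatives were pseudocounts of 0.1 and 0.5, no filter or a minimum of 5 FPKM, quantile normalization, median scaling, fits of the compared lines alone, no intensity trend, a replicate block and leaving out each library.

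The members and gene lists were chosen with earlier results of these data known. Values in every library are given for BRCA1, BRCA2, PALB2, FANCD2, FANCI, UBE2T, ATM, ATR and CHEK1, for the 5 highest and 5 lowest called members per treatment, for the 5 smallest adjusted p-values of the difference and for the 3 highest and 3 lowest called members per comparison of lines; for outside genes, up to 2 called genes per list and treatment are named, and some items are not reported here. Promoter windows are from RefSeq (GRCh38.p14), matched by symbol; no coordinates were converted between builds.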

Additional observations from a re-analysis of the deposited data

Results flagged for a closer look

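For 30 of the 40 genes the response to CPI-169 in KARPAS-422 differed from the response to GSK343 in Pfeiffer by limma's test of the difference itself, where 42.6% of all tested genes did. Line and compound differ together in this comparison and cannot be told apart. The values are the CPI-169 response minus the GSK343 response in log2 units, and a positive value means a higher fold change in KARPAS-422.

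Among BRCA1 and its partners the differences were BRCA1 (1.02), BARD1 (0.74), BRIP1 (1.18) and RBBP8 (1.08). Among the strand exchange genes they were RAD51C (0.85), XRCC2 (1.21), XRCC3 (0.98), RAD51AP1 (1.21), RAD54L (2.71), MND1 (2.67) and PSMC3IP (1.26), and among the nucleases EXO1 (1.57) and EME1 (1.24). In the Fanconi core complex and its conjugating enzyme they were FANCA (1.72), FANCB (0.51), FANCC (0.97), FANCE (0.73), FANCF (1.17), FANCG (1.37), FANCL (0.74) and UBE2T (1.99), and for its substrates FANCD2 (1.01) and FANCI (2.10). In the MRE11 complex they were MRE11A (0.69) and NBN (0.66). The checkpoint genes had CHEK1 (2.43), CHEK2 (1.00) and TOPBP1 (0.41), and MSH6 had 0.94. ATM was the 1 gene with a negative difference (-0.80). The 22 S phase and mitosis markers all passed with positive differences too, and their part in these values was not tested.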

How the results depend on the processing

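No called member changed its sign in any of the 21 alternatives. FANCC was not tested at the minimum of 5 FPKM, so its calls were checked in 20. The alternatives in which a gene was tested kept 17 of 20 calls in KARPAS-422 (exceptions RAD51C, XRCC3 and FANCL), 28 of 30 calls of the difference (exceptions FANCB and TOPBP1), 27 of 30 for RL over KARPAS-422, 27 of 30 for RL over Pfeiffer and 28 of 34 for KARPAS-422 over Pfeiffer. Of the 20 members not called in KARPAS-422, 9 passed in at least 1 alternative (RAD51AP1, FANCD2, FANCI, CHEK1, CHEK2, ATM, RBBP8, MRE11A and RAD50). For GSK343 no call was kept in all of them, because the fit of Pfeiffer alone, which has 4 libraries, called 0 members higher and 0 lower. That fit called 0 genes higher and 0 lower over the whole table. A Pfeiffer group that loses a library keeps 1, and calls that compare it then rest on the spread of the other groups. Leaving out 1 library gave 28 to 32 members lower with GSK343 and 1 higher; the calls over all tested genes ran from 1207 to 4458 higher and from 1796 to 4223 lower, against 2254 and 3281. The extremes came without DMSO replicate 1 of Pfeiffer (1207 and 1796) and without GSK343 replicate 1 (4458 and 4223), and without DMSO replicate 2 of Pfeiffer the counts were 1444 and 2093. Negative differences between the responses numbered 1 to 2 members when a library was left out (2 without either GSK343 library) and 2 with median scaling, against 1. A minimum of 5 FPKM, which tests fewer genes, gave 4743 genes lower in RL than in Pfeiffer, against 7252.

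The deviations of same-numbered libraries had correlations of mixed sign in KARPAS-422 (-0.152, -0.252 and 0.156 across genes). In Pfeiffer the correlation was 0.14, which counts once, because with 2 libraries per group both pairs must give the same value. Same-numbered libraries share only a number. With the replicate block, fitted for the treatments on the libraries of the treated lines, 30 members were lower and 1 higher with GSK343, 13 lower and 6 higher with CPI-169, and 27 differences positive and 1 negative; over all tested genes 2030 were lower with GSK343, against 3281. Summing several entries of a symbol was not run because each symbol had 1 entry. Groups of 2 or 3 libraries and unknown depth limit the precision of every value.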

Other observations

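Lists of other repair routes were counted in the same way, beside 26.9% higher and 27.3% lower among all tested genes with CPI-169 in KARPAS-422, and 12% higher and 17.5% lower with GSK343 in Pfeiffer. The lists were not compared with each other by a test. Of 20 genes of nucleotide and base excision repair, 12 were higher and 2 lower with CPI-169 in KARPAS-422, with a median log2 fold change of 0.32, and 2 were higher and 6 lower with GSK343 in Pfeiffer. DDB2, which recognises ultraviolet damage, and NEIL2, a DNA glycosylase, were higher in KARPAS-422 at 0.69 and 0.97, and LIG1, the replicative DNA ligase, and NEIL3 were lower in Pfeiffer at -1.42 and -1.19. The difference between the responses was positive and passed for 13 of these 20 genes and negative for 1, where 23.8% and 18.8% of all tested genes passed in these directions.

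Of 10 non-homologous end joining genes, 3 were higher and 3 lower in KARPAS-422 and 4 were higher and 3 lower in Pfeiffer. XRCC6, a subunit of the Ku end-binding protein, was lower in both, at -0.61 and -0.72. Of 12 genes of the BRCA1-A complex and break signalling, 4 were higher and 5 lower in KARPAS-422 and 1 was higher and 5 lower in Pfeiffer. TP53BP1, which counters end resection, was lower in KARPAS-422 at -0.97, its partner RIF1 was lower in both at -0.58 and -0.63, and the histone gene H2AFX was lower in Pfeiffer at -1.43.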
